A study of Mus musculus with 6 samples.

Results

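The glutathione, aldehyde and conjugation enzymes examined here are 101 genes whose symbols place them in 8 families. They are the cytosolic and kappa glutathione transferases (Gst), membrane-bound glutathione transferases (Mgst), glutathione peroxidases (Gpx), quinone reductases (Nqo), aldehyde dehydrogenases (Aldh), sulfotransferases (Sult), carboxylesterases (Ces) and UDP-glucuronosyltransferases (Ugt). They were taken from 22179 genes named singly in the annotation of the array, by a rule on the symbol that uses no measured value. A gene with several rows, true of 3 members, was represented by the row with the highest mean. The families hold 18 Gst, 3 Mgst, 9 Gpx, 2 Nqo, 21 Aldh, 21 Sult, 19 Ces and 8 Ugt genes, and 2 of the 101 (Gpx2-ps1 and Ces2d-ps) are listed as pseudogenes.

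The samples were GFP-high cells (n = 3 arrays) and GFP-negative cells (n = 3 arrays) sorted by flow cytometry from mouse small-cell lung cancer. All 6 came from tumours of mice with conditional knockout alleles of Rb, p53 and p130, in which adenovirus with Cre, given through the trachea, starts tumours in the lung. The mice also carried a GFP reporter of Hes1, a repressor that Notch signalling switches on, and tumours were collected 5 to 6 months after Cre. The conditional alleles and the reporter were therefore carried by both populations, and whether the sorted cells had recombined them was not tested. The labels speak of tumours pooled from 3 mice in one field and from a single mouse in another. Whether each array had its own pool, the cell type that received Cre, and the ages and strains of the mice were not stated there, so the p-values measure the spread between these samples. In bulk samples, more cells of a type and more RNA per cell cannot be told apart.

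Expression was measured on Affymetrix Mouse Gene 2.0 ST arrays and is given as log2 values from robust multi-array averaging (RMA). Differences are GFP-high minus GFP-negative on the log2 scale, with the standard error (SE) and the adjusted p of limma. A gene was called where the adjusted p was under 0.05. Arrays correlated at 0.987 to 0.991 within groups and at 0.918 to 0.940 between them, over genes, which are not independent points. Hes1 itself had a log2 value of 10.40 ± 0.11 in GFP-high cells and 6.85 ± 0.18 in GFP-negative cells (SD, n = 3 each). Neuroendocrine markers, which define the tumour type, were lower in GFP-high cells for 13 of 13 measured genes. Their mean log2 value was 7.59 to 8.66 in the GFP-high arrays and 10.21 to 10.34 in the GFP-negative arrays. Markers of 3 lung epithelial cell types were higher in GFP-high cells: 11 of 12 club and secretory markers, 10 of 12 alveolar type 2 markers and 10 of 10 alveolar type 1 markers. The mean log2 value of the club markers was 9.95 to 10.33 in the GFP-high arrays and 6.47 to 7.04 in the GFP-negative arrays. For alveolar type 2 markers it was 9.47 to 9.88 in GFP-high and 6.39 to 6.70 in GFP-negative arrays, and for alveolar type 1 markers 8.50 to 8.81 in GFP-high and 6.49 to 6.61 in GFP-negative arrays. Of 10 ciliated cell markers 1 was higher and 4 lower, and of 7 basal cell markers 1 was higher and 2 lower. Of 10 pan-leukocyte markers 1 was higher and 1 lower, and of 10 hepatocyte markers 2 were higher and 1 lower. The tuft, endothelial and fibroblast lists, of 10 markers each, also had 1 higher and 1 lower. Of 9 alveolar macrophage markers 1 was higher, and none of 3 erythroid markers passed. Over all genes 13.0% were higher and 17.0% lower. The log2 values have no detection call, so no marker can be said to be at 0, and the part of these cell types in the results on the enzymes was not tested.

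These families handle reactive and foreign molecules. Glutathione transferases join the tripeptide glutathione to electrophiles, glutathione peroxidases use it to reduce peroxides, and quinone reductases keep quinones from redox cycling. Aldehyde dehydrogenases oxidise aldehydes from lipid peroxidation, alcohol, amino acids and vitamin A, and their retinaldehyde-oxidising members make retinoic acid. Sulfotransferases and glucuronosyltransferases attach water-soluble groups, and carboxylesterases split esters. In the airway such enzymes are abundant in club cells. Many of the genes are known to be induced by NRF2 (Nfe2l2) through a short promoter motif, the antioxidant response element.

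Promoter windows were read for 83 of the 101 members from RefSeq (build GRCm38.p6), which gave 101 windows of 250 bases before and 50 bases after an annotated start. No window was found for Gsta4, Aldh2, Aldh3a1 or Aldh1a3, and a motif outside a window would be missed. The core of the antioxidant response element was searched on both strands as TGACNNNGC. It was found in 12.4% of all 32851 windows and in 5 of the 101 member windows, those of Gsta3, Mgst1, Aldh1a2, Aldh9a1 and Gstm7. The windows of the first 4 are shown because these genes changed between the populations, Gsta3 and Mgst1 upward and Aldh1a2 and Aldh9a1 downward in GFP-high cells, and capitals mark the match.
Gsta3, chr1:21240335-21240634, plus strand: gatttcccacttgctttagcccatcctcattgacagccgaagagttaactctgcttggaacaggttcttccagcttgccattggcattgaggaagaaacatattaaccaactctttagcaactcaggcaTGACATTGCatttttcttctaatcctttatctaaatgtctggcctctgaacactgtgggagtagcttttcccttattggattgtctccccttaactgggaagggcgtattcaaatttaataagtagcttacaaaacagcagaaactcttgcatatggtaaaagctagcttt
Mgst1, chr6:138140277-138140576, plus strand: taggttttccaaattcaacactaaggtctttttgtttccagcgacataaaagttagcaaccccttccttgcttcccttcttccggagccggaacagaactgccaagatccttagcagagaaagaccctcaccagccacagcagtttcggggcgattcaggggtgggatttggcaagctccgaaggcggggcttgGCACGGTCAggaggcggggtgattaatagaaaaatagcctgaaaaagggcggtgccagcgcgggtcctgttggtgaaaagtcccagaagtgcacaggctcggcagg
Aldh1a2, chr9:71215539-71215838, plus strand: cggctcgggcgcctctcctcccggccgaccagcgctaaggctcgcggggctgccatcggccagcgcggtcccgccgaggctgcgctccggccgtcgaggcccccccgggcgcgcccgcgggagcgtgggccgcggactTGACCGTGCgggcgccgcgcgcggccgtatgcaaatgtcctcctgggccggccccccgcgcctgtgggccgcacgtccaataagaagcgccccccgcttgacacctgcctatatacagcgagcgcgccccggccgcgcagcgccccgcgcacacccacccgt
Aldh9a1, chr1:167349741-167350040, plus strand: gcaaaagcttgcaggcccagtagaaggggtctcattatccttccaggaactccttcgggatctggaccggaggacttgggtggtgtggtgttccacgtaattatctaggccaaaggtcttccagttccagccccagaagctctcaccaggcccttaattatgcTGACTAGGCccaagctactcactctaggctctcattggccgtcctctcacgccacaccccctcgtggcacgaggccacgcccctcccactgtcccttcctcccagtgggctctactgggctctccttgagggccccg
The match began at base -121 from the start in Gsta3, -56 in Mgst1, -112 in Aldh1a2 and -87 in Aldh9a1. In Mgst1 it lay on the opposite strand, and read on that strand its 9 bases, TGACCGTGC, were those of the match in Aldh1a2. Mgst1 was higher and Aldh1a2 lower in GFP-high cells, and whether NRF2 binds either site was not tested. Among members higher by a log2 fold change of 1 or more, 2 of 20 windows (16 genes) held the motif, and among members that were lower, 2 of 8 windows (7 genes). The RBPJ core TGGGAA, bound by the DNA-binding protein of the Notch pathway, was found in 25.6% of all windows and in 6 of the same 20, those of Gsta3, Gpx8, Gstm2, Mgst2, Nqo1 and Aldh6a1. The core GCGTG bound by the aryl hydrocarbon receptor was in 32.4% of all windows and 5 of the 20. The HES site CACGNG was in 27.5% of all windows and 4 of the 20. GCGTG can overlap CACGNG, whose reverse complement may contain it. A match is a description of these letters only.

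In GFP-high cells, 31 of the 101 members were higher and 10 were lower, and 60 did not pass. Over all genes tested, 30% were called, 13.0% as higher and 17.0% as lower. The share of higher calls among members was 30.7%, and that of lower calls 9.90%. The median log2 fold change was 0.17 over members and 0.01 over all genes. By a log2 fold change of 1 or more, 21 of the 101 members were higher, against 5.63% of all genes. By the same step 5 of the 101 were lower, against 6.02% of all genes. By 3 or more, 8 members were higher, against 1.05% of all genes, and all 8 belong to glutathione families: Gsta4, Mgst1, Gpx8, Gstk1, Gsto1, Gstt1, Gstt3 and Gsta3. The 3 values of the GFP-high arrays all lay above those of the GFP-negative arrays for 36 members and all below for 11, against 20.0% and 24.6% of all genes (44.6% in either direction).

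**Figure D1:**
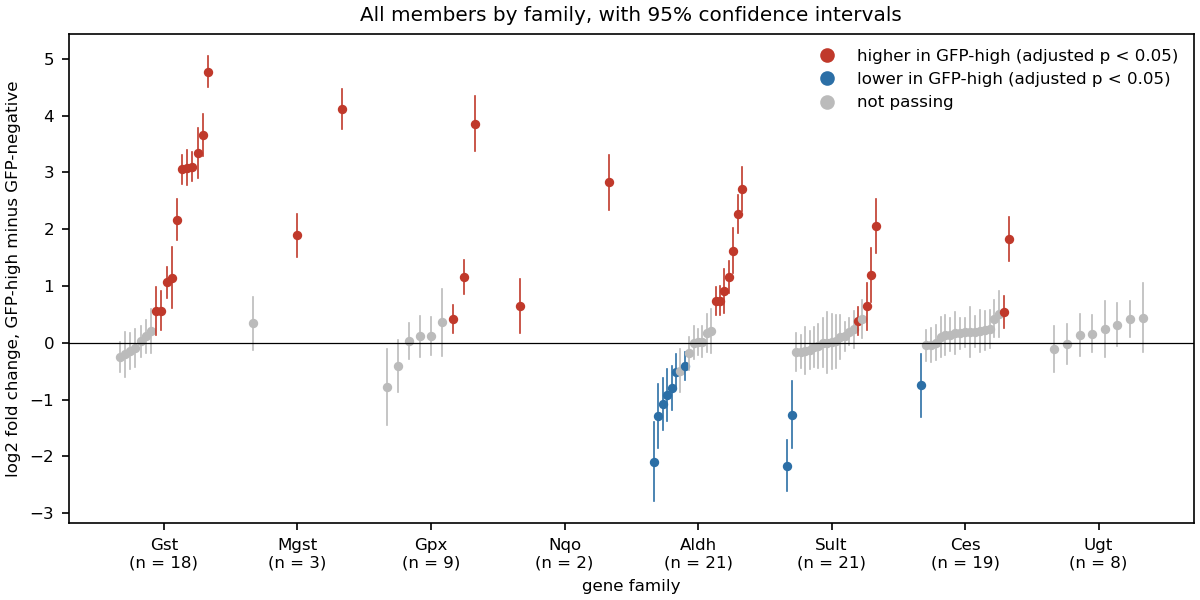
Log2 fold change of every member, GFP-high minus GFP-negative, by family; points are limma estimates from 3 arrays a group and bars are 95% confidence intervals. On rows that name 1 gene, the 18 Gst genes reach 4.77 with none called lower. The 21 Aldh genes are split into 7 higher and 7 lower, and none of the 8 Ugt genes, all of them Ugt2, passes.

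On rows that name 1 gene, the cytosolic and kappa glutathione transferases held the most genes that rose: 11 of 18 were higher, none was lower and 7 did not pass. Beside this and every family count below, the shares over all genes were 13.0% higher and 17.0% lower. Gsta4, which conjugates the lipid peroxidation product 4-hydroxynonenal, read 10.40, 10.39 and 10.23 in GFP-high arrays, against 5.72, 5.47 and 5.50 in GFP-negative arrays. The ratio was 27.4-fold (4.77 ± 0.12 on the log2 scale, adjusted p = 1.83e-07), the largest rise of the 101 members, and the groups did not overlap. Gsta3, the other alpha class gene with a row of its own, read 7.63, 7.52 and 7.60 in GFP-high and 4.64, 4.45 and 4.51 in GFP-negative arrays (3.05 ± 0.11). Both of these genes were thus separated with little spread inside either group. The rows shared by Gsta1, Gsta2 and related sequences did not pass. Gstk1, the kappa class enzyme of mitochondria and peroxisomes, read 9.64, 9.37 and 9.42 in GFP-high and 5.70, 6.14 and 5.62 in GFP-negative arrays, a 12.6-fold difference (3.66 ± 0.16, adjusted p = 1.11e-06). Gsto1, an omega class enzyme that can reduce dehydroascorbate, read 8.91, 8.47 and 8.53 in GFP-high and 5.56, 5.41 and 4.92 in GFP-negative arrays (3.34 ± 0.19). Its neighbour Gsto2 read 4.86, 4.76 and 4.61 in GFP-high and 4.78, 4.50 and 4.61 in GFP-negative arrays, with a difference of 0.11 (95% interval -0.17 to 0.40, adjusted p = 0.561 by limma). The omega genes therefore differed in their calls although they lie next to each other, and the difference between them was not tested.

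The theta class followed, with 3 of 4 genes higher. Gstt1 read 9.68, 9.57 and 9.71 in GFP-high and 6.54, 6.67 and 6.45 in GFP-negative arrays (8.58-fold, 3.10 ± 0.11, adjusted p = 4.78e-07). Gstt3 read 7.77, 7.78 and 8.14 in GFP-high and 4.76, 4.82 and 4.86 in GFP-negative arrays (3.08 ± 0.13). These neighbours rose by nearly the same amount. Gstt2 rose less, with 7.68, 7.28 and 7.18 in GFP-high and 6.10, 6.75 and 5.85 in GFP-negative arrays (1.14 ± 0.23, adjusted p = 0.00591), and GFP-negative replicate 2 came nearest to the GFP-high arrays. Gstt4, which lies between Gstt1 and Gstt2 in the RefSeq order, did not pass (0.21 ± 0.17, adjusted p = 0.424).

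The mu class genes measured singly form an unbroken row of 6 members, of which 4 were higher. Their order is Gstm7, Gstm6, Gstm3, Gstm2, Gstm1 and Gstm4. Gstm2 read 9.50, 9.11 and 9.28 in GFP-high and 7.23, 7.31 and 6.85 in GFP-negative arrays (4.49-fold, 2.17 ± 0.16). Gstm1 read 8.70, 8.55 and 8.42 in GFP-high and 7.56, 7.49 and 7.43 in GFP-negative arrays (1.06 ± 0.12). The rises were smaller for Gstm6 (0.57 ± 0.15, adjusted p = 0.0194) and Gstm3 (0.56 ± 0.18, adjusted p = 0.048), and both calls were lost when single arrays were left out. The Gstm3 call was also lost with array medians subtracted (adjusted p = 0.0621 by limma) and under quantile normalization (0.0945). Both genes read under the median of all genes on every array. At the ends of the row, Gstm4 (-0.09 ± 0.15) and Gstm7 (-0.20 ± 0.17) did not pass. A shared row for the mu class gene Gstm5 and 4933431E20Rik was lower (-1.51 ± 0.17, adjusted p = 0.000964 by limma over all rows). The pi class, which is the transferase class often raised in human tumours, held no called gene on rows that name 1 gene. A row shared by Gstp1 and Gstp2 was lower (-0.49 ± 0.14, adjusted p = 0.0443 by limma over all rows). Gstp1 read 10.11, 9.95 and 10.13 in GFP-high and 10.08, 10.45 and 10.09 in GFP-negative arrays, so the groups overlapped (-0.14, 95% interval -0.45 to 0.17, adjusted p = 0.49 by limma). Gstp2 (-0.25 ± 0.12, adjusted p = 0.159) and Gstp3 (0.02 ± 0.12, adjusted p = 0.91) did not pass either. Members of the alpha, mu and pi classes resemble each other in sequence, and how far the probes tell them apart was not tested. Nor was this tested for close relatives within the other families.

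**Figure D2:**
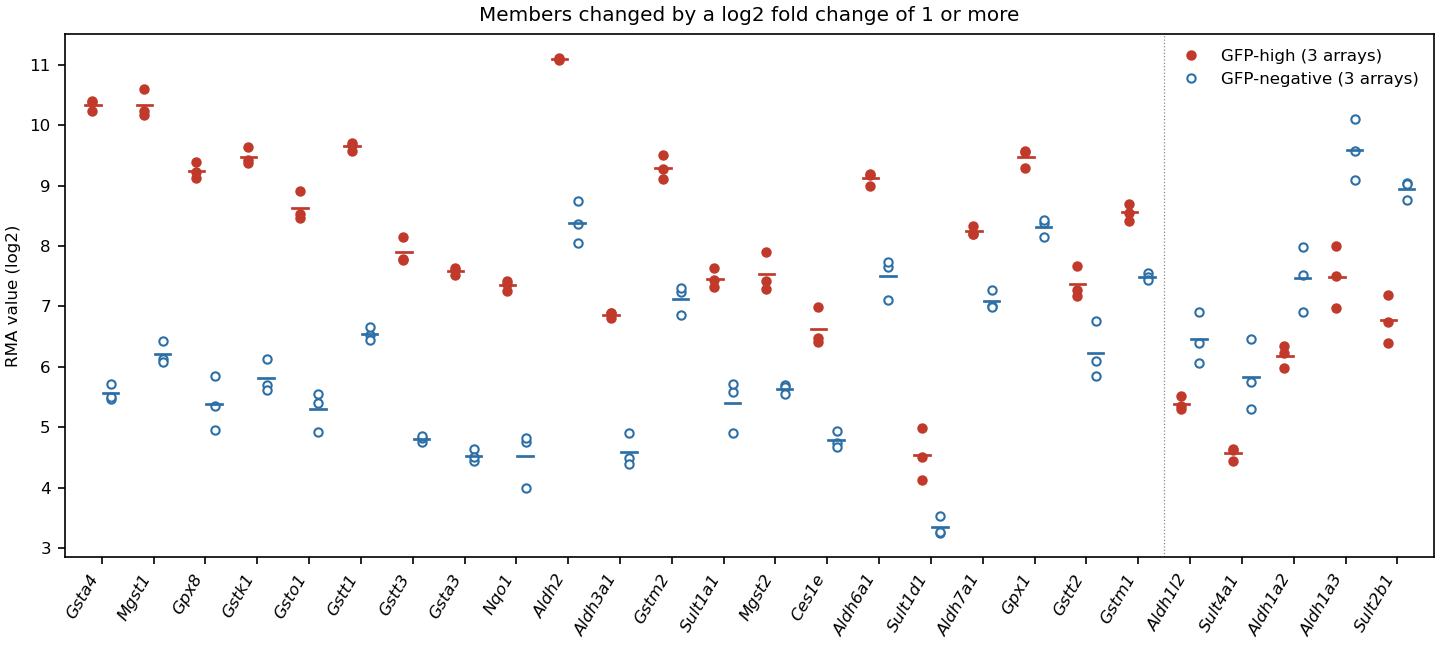
RMA log2 values of the 26 members called with a log2 fold change of 1 or more, GFP-high left and GFP-negative right for each gene; points are arrays (n = 3 per group) and short lines are group means. The 21 genes left of the dotted line are higher in all 3 GFP-high arrays, by up to 4.77 for Gsta4, and the 5 genes right of it are lower in all 3.

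Of the membrane-bound transferases, Mgst1 and Mgst2 rose and Mgst3 did not pass. Mgst1, an enzyme of the endoplasmic reticulum and outer mitochondrial membrane that also reduces lipid hydroperoxides, read 10.60, 10.23 and 10.17 in GFP-high and 6.43, 6.13 and 6.08 in GFP-negative arrays. The difference was 17.4-fold (4.12 ± 0.16, adjusted p = 5.83e-07). Mgst2, which can form leukotriene C4, read 7.90, 7.43 and 7.29 in GFP-high and 5.70, 5.67 and 5.55 in GFP-negative arrays (1.89 ± 0.17). The groups were separate for both genes, with GFP-high replicate 1 the highest array in each. Mgst3 had overlapping groups (0.34 ± 0.20, adjusted p = 0.255).

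Among the 9 glutathione peroxidases 3 rose and none fell. Gpx8, a peroxidase of the endoplasmic reticulum, read 9.13, 9.22 and 9.39 in GFP-high and 5.35, 5.85 and 4.96 in GFP-negative arrays, a 14.5-fold difference (3.86 ± 0.21, adjusted p = 4.24e-06). Gpx1, the abundant cytosolic selenoenzyme, read 9.57, 9.30 and 9.56 in GFP-high and 8.38, 8.42 and 8.15 in GFP-negative arrays (1.15 ± 0.13). Gpx4, which reduces lipid hydroperoxides in membranes and restrains ferroptosis, was higher by a smaller step (0.42 ± 0.11, adjusted p = 0.0165). Gpx4 no longer passed without GFP-high replicate 1 (adjusted p = 0.0612) or GFP-negative replicate 3 (0.0578). Gpx3, the secreted plasma enzyme, ran the other way but with overlapping groups: 5.64, 6.36 and 6.91 in GFP-high and 6.84, 7.39 and 7.03 in GFP-negative arrays (-0.78 ± 0.29, adjusted p = 0.0802). Without GFP-high replicate 3, its highest GFP-high array, Gpx3 passed as lower (-1.08, adjusted p = 0.0131). The remaining genes Gpx2, Gpx5, Gpx6, Gpx7 and Gpx2-ps1 did not pass.

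Both quinone reductases were called higher. Nqo1, a classical NRF2 target, read 7.43, 7.25 and 7.38 in GFP-high and 4.75, 4.83 and 4.01 in GFP-negative arrays (7.08-fold, 2.82 ± 0.21, adjusted p = 2.56e-05). Nqo2 read 6.88, 6.30 and 7.11 in GFP-high and 6.03, 6.32 and 5.97 in GFP-negative arrays (0.65 ± 0.21, adjusted p = 0.0434). The Nqo2 groups overlapped, and its call was lost without any of 4 single arrays, GFP-high replicates 1 and 3 and GFP-negative replicates 1 and 3 (adjusted p = 0.117 to 0.124).

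The aldehyde dehydrogenases had no common direction: of 21 genes 7 rose, 7 fell and 7 did not pass (median log2 fold change 0.02). Among those that rose were enzymes of aldehyde clearance and of amino acid breakdown. Aldh2, the mitochondrial enzyme that oxidises acetaldehyde, read 11.08, 11.10 and 11.12 in GFP-high and 8.74, 8.36 and 8.06 in GFP-negative arrays (6.54-fold, 2.71 ± 0.17, adjusted p = 8.97e-06). A second row for Aldh2 also rose (2.48 ± 0.22). Aldh3a1, which clears medium-chain and lipid-derived aldehydes, read 6.81, 6.89 and 6.89 in GFP-high and 4.91, 4.49 and 4.39 in GFP-negative arrays (2.27 ± 0.15). For both genes the SD was smaller in the GFP-high arrays (0.02 and 0.05) than in the GFP-negative arrays (0.34 and 0.28). Aldh6a1, of valine breakdown, read 9.19, 9.0 and 9.17 in GFP-high and 7.65, 7.74 and 7.11 in GFP-negative arrays (1.62 ± 0.17), and a second row for it rose by 0.87 ± 0.11. Aldh7a1, of lysine breakdown, read 8.33, 8.21 and 8.20 in GFP-high and 7.01, 7.27 and 7.0 in GFP-negative arrays (1.16 ± 0.12). A row that names Aldh7a1 together with Phax gave -0.17 ± 0.12 (adjusted p = 0.408 over all rows). Smaller rises were those of Aldh1l1, the cytosolic 10-formyltetrahydrofolate dehydrogenase (0.91 ± 0.17), the fatty aldehyde dehydrogenase Aldh3a2 (0.74 ± 0.11) and Aldh4a1, of proline breakdown (0.73 ± 0.11). A second row for Aldh3a2 rose by 1.04 ± 0.15.

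Retinaldehyde dehydrogenases were among those that fell. Aldh1a3 read 7.50, 6.98 and 8.01 in GFP-high and 9.57, 10.11 and 9.09 in GFP-negative arrays, 4.27-fold lower in GFP-high cells (-2.09 ± 0.30, adjusted p = 0.000929). Aldh1a2, whose promoter window is printed above, read 6.23, 5.98 and 6.34 in GFP-high and 7.99, 7.51 and 6.91 in GFP-negative arrays (-1.29 ± 0.25, adjusted p = 0.00435). The groups were separate for both genes, with more spread in each group than for Aldh7a1. Aldh1a1, the third retinaldehyde dehydrogenase, read 10.17, 9.84 and 10.03 in GFP-high and 9.98, 9.99 and 9.45 in GFP-negative arrays, and did not pass (0.20, 95% interval -0.19 to 0.60, adjusted p = 0.433 by limma). Its neighbour and close relative Aldh1a7 read 9.35, 9.14 and 9.54 in GFP-high and 10.61, 10.32 and 9.85 in GFP-negative arrays (-0.92 ± 0.20, adjusted p = 0.00803). How far the probes tell Aldh1a1 and Aldh1a7 apart was not tested. Aldh1l2, the mitochondrial counterpart of Aldh1l1, fell while Aldh1l1 rose: it read 5.51, 5.30 and 5.35 in GFP-high and 6.39, 6.07 and 6.91 in GFP-negative arrays (-1.07 ± 0.20, adjusted p = 0.00374). The mitochondrial Aldh1b1 fell by 0.79 ± 0.17, Aldh5a1, which oxidises succinic semialdehyde made from the transmitter GABA, by 0.51 ± 0.14, and Aldh9a1, of carnitine synthesis, by 0.40 ± 0.11 on the log2 scale. The call for Aldh5a1 was lost without any of 3 single arrays (adjusted p = 0.0619 to 0.072), and that for Aldh9a1 without any of 5 (0.0524 to 0.0692). Aldh18a1, of proline synthesis, had separate groups but did not pass (-0.49 ± 0.16, adjusted p = 0.052). It passed as lower under 5 of 15 alternative settings. Among these were leaving out GFP-high replicate 3 (-0.60, adjusted p = 0.0355) and subtracting array medians (-0.50, adjusted p = 0.0369). The other 5 genes, Aldh3b1, Aldh3b2, Aldh3b3, Aldh8a1 and Aldh16a1, did not pass, with log2 fold changes between -0.19 and 0.17.

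Of 21 sulfotransferases 4 were higher, 2 lower and 15 did not pass. Sult1a1, the main phenol sulfotransferase, read 7.33, 7.63 and 7.43 in GFP-high and 5.59, 4.90 and 5.71 in GFP-negative arrays (4.17-fold, 2.06 ± 0.21, adjusted p = 0.000138). Sult1d1, which in the mouse sulfates catecholamines, read 4.51, 4.14 and 5.00 in GFP-high and 3.54, 3.25 and 3.26 in GFP-negative arrays (1.20 ± 0.21). Sult1d1 was the only called gene in a row of 3 sulfotransferases that also holds Sult1b1 and Sult1e1. Sult2b1, which sulfates cholesterol, had the largest fall of the 101 members, with 6.74, 6.40 and 7.20 in GFP-high and 9.03, 9.02 and 8.77 in GFP-negative arrays (-2.16 ± 0.20, adjusted p = 7.91e-05). Sult4a1, known from the brain, read 4.45, 4.63 and 4.64 in GFP-high and 5.75, 5.30 and 6.46 in GFP-negative arrays (-1.27 ± 0.26, adjusted p = 0.00555). The groups were separate for all 4 of these genes. Sult2a3 (0.64 ± 0.18) and Sult6b1 (0.38 ± 0.11) were called higher, but each lost its call when single arrays were left out, Sult2a3 without any of 4 and Sult6b1 without any of 5. The other 7 Sult2a genes, most of them known from the liver, did not pass, with log2 fold changes between -0.14 and 0.11.

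Carboxylesterases and glucuronosyltransferases mostly did not pass. Of 19 Ces genes 2 were higher and 1 lower, and all of these lie in 1 row of 9 neighbours. Ces1e read 6.99, 6.40 and 6.49 in GFP-high and 4.74, 4.68 and 4.95 in GFP-negative arrays (3.57-fold, 1.83 ± 0.17, adjusted p = 8.42e-05). Next to it Ces1f rose by 0.54 ± 0.12 and Ces1d, a lipid ester hydrolase, did not pass (0.51 ± 0.18, adjusted p = 0.0669). Ces1d passed as higher under 5 of 15 alternative settings. Among these were leaving out GFP-negative replicate 2 (0.64, adjusted p = 0.0406) and quantile normalization (0.56, adjusted p = 0.0427). At the end of the row Ces5a was called lower with overlapping groups (-0.75 ± 0.24, adjusted p = 0.0467), a call lost without any of 4 single arrays (0.0825 to 0.148). Of the 7 Ces2, 2 Ces3 and 1 Ces4 genes none passed. None of the 8 Ugt2 genes passed, with log2 fold changes between -0.11 and 0.44 and values between 1.79 and 4.52 on all 6 arrays. The nearest was Ugt2a3 (0.42 ± 0.14, adjusted p = 0.0535), whose groups were separate.

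**Figure D3:**
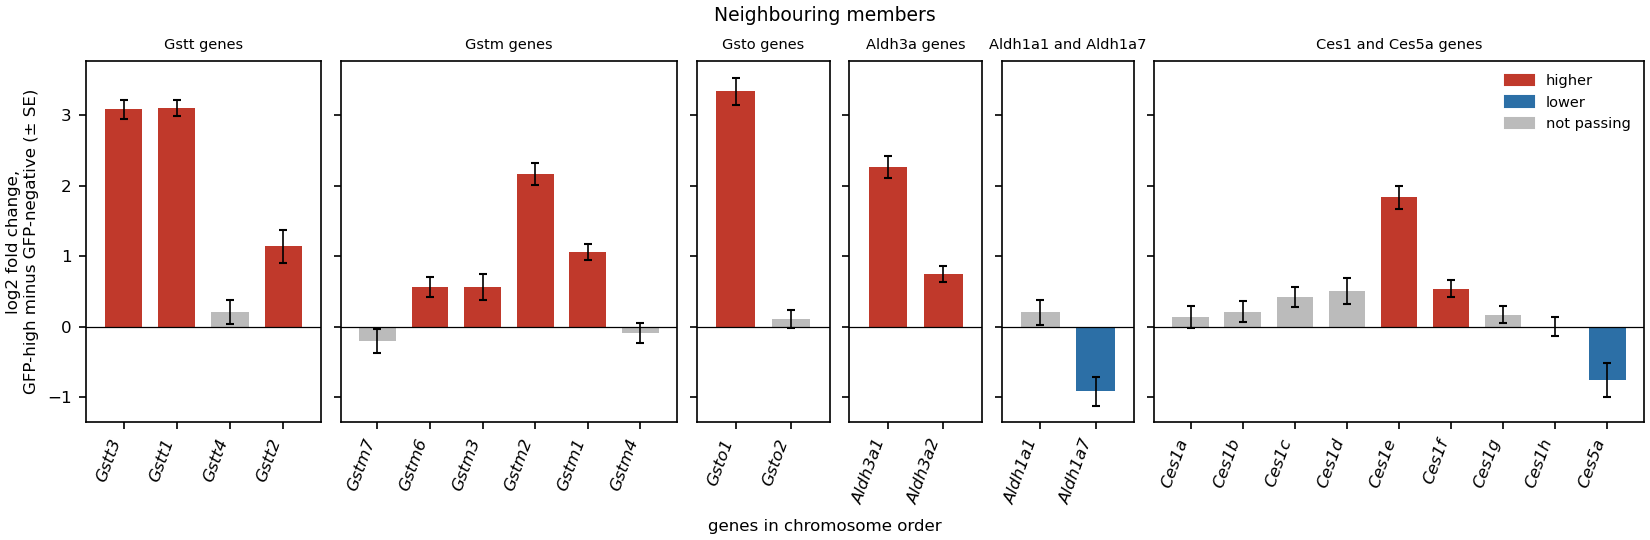
Log2 fold change (GFP-high minus GFP-negative, bars from 0, error bars SE, n = 3 arrays per group) of members that lie next to each other, in RefSeq GRCm38 chromosome order and without distances. Gstt3 and Gstt1 rise together beside Gstt4 at 0.21, Gsto1 at 3.34 stands beside Gsto2 at 0.11, and Ces1e at 1.83 stands out within its row.

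Values under the median of all genes on every array were read for 54 members (53.5%), against 43.4% of all genes. Of these 54, 8 were called. They include all 8 Ugt2 genes, 18 of 21 Sult genes and 16 of 19 Ces genes, but 3 of 21 Aldh genes and 5 of 18 Gst genes. Array signal near the low end of the scale is compressed, so a failed test of such a gene does not show equal levels. Over the 21 members higher by 1 or more, which were selected on these arrays, the median shift from the GFP-negative mean was 2.37, 2.30 and 2.29 in GFP-high replicates 1, 2 and 3, given as a description only. Over the 5 members lower by 1 or more, selected in the same way, the shifts were -1.39, -1.49 and -1.20, smallest in GFP-high replicate 3. Neuroendocrine markers were also highest in that array among the GFP-high arrays, and a link between these observations was not tested.

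Genes that supply or use glutathione outside the families moved both ways. Of 25 measured, 9 rose, 6 fell and 10 did not pass (median log2 fold change 0.08, against 0.01 over all genes). Over all genes 13.0% rose and 17.0% fell, and these shares stand beside the counts of every list below. The count of these glutathione genes that fell was 3 without GFP-high replicate 2, GFP-negative replicate 1 or GFP-negative replicate 2. It was also 3 when all rows, not 1 per gene, were fitted. Ptges, a prostaglandin E synthase that uses glutathione, rose by 3.35 ± 0.22, glutathione synthetase, Gss, by 2.03 ± 0.11 and 5-oxoprolinase, Oplah, by 1.87 ± 0.11. Ggt7, of the gamma-glutamyltransferase family, fell by 1.60 ± 0.17 on the log2 scale. The subunits of the rate-limiting glutamate-cysteine ligase went apart: the catalytic Gclc rose by 0.60 and the modifier Gclm fell by 0.39.

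Of 28 measured genes of NRF2, its partners and its targets outside the families, 12 rose, 4 fell and 12 did not pass (median 0.33). The related lists share genes, so their counts are not independent. Gclc, Gclm, Gsr and Slc7a11 are also in the glutathione list, and Srxn1, Ephx1 and Abcc1, among others, are in lists below. Leaving out any of GFP-high replicate 2, GFP-negative replicate 1 and GFP-negative replicate 2 left 2 that fell, as did the fit of all rows. Osgin1 (3.23 ± 0.15), the epoxide hydrolase Ephx1 (2.74 ± 0.18), malic enzyme Me1 (2.37 ± 0.14) and Trim16 (2.36 ± 0.14) led the rises. Nfe2l2, which encodes NRF2 itself, had a log2 value of 10.76 ± 0.19 in GFP-high cells and 9.45 ± 0.20 in GFP-negative cells (SD, n = 3 each; adjusted p = 0.000244 by limma). Keap1, its inhibitor, did not pass (0.33). Among targets, Hmox1 rose by 1.05, Srxn1 fell by 0.85, and Slc7a11 (0.22) and Txnrd1 (-0.16) did not pass. Nfe2l2, Keap1, Hmox1, Srxn1, Slc7a11, Txnrd1, Gclc and Gclm were picked out with their values already known.

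The list labelled xenobiotic sensors also holds partner receptors and other transcription factors. Of its 15 measured genes 7 rose and none fell (median 0.17). Those that rose were Ahr, Esr1, Cebpa, Pparg, Cebpb, Rxra and Ppara, so the count is not one of sensors alone. The aryl hydrocarbon receptor Ahr had 11.06 ± 0.03 in GFP-high cells, against 7.76 ± 0.29 in GFP-negative cells (SD, n = 3 each; 3.30 ± 0.15, adjusted p = 1.51e-06 by limma). The oestrogen receptor Esr1 rose by 3.01 ± 0.13, Cebpa by 1.38 ± 0.17 and Pparg by 1.28 ± 0.18. The liver receptors Nr1i2 (-0.10) and Nr1i3 (0.12), named after their values were seen, did not pass.

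Retinoic acid genes outside the families had 7 higher, 2 lower and 11 not passing of 20 (median 0.20), and 1 was lower without GFP-high replicate 2. Dhrs3, which reduces retinaldehyde back to retinol, rose by 3.20 ± 0.14, the retinoic acid receptor Rarb by 3.01 ± 0.15 and the retinol dehydrogenase Rdh10 by 2.05 ± 0.15. Crabp1, which binds retinoic acid, fell by 1.65 ± 0.40 on the log2 scale. These changes stood beside the falls of Aldh1a2 and Aldh1a3 and an Aldh1a1 that did not pass.

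Of 21 other antioxidant enzymes 7 rose and 3 fell (median 0.15). Catalase, Cat, was 11.66 ± 0.17 in GFP-high cells, against 7.96 ± 1.05 in GFP-negative cells (SD, n = 3 each; 3.70 ± 0.43, adjusted p = 0.000287 by limma), with a wide spread in the GFP-negative arrays. The methionine sulfoxide reductases Msrb3 (2.06 ± 0.14) and Msra (1.16 ± 0.14) and the selenium carrier Selenop (1.47 ± 0.12) rose. Of 29 other conjugating, reducing and hydrolysing enzymes 11 rose and 3 fell (median 0.27), and 1 fell without GFP-high replicate 1, GFP-high replicate 2 or GFP-negative replicate 1. The largest changes were those of the aldehyde oxidase Aox3 (4.91 ± 0.14), the carbonyl reductase Cbr2 (4.73 ± 0.21), xanthine dehydrogenase, Xdh (3.32 ± 0.25), and Akr1c14, an aldo-keto reductase (3.21 ± 0.14). Cbr2 is also a club cell marker in the list above.

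Co-substrate genes had 3 higher and 2 lower of 13 (median 0.12). The sulfate transporter Slc26a2 (1.81 ± 0.16) and Papss2, which makes the sulfate donor (1.69 ± 0.19), rose. Ugdh, which makes UDP-glucuronic acid, fell by 0.81 ± 0.12, and the sulfatase Arsb by 0.55 ± 0.13 on the log2 scale. A second row for Arsb did not pass (-0.55 ± 0.25, adjusted p = 0.179 over all rows). Of 10 export pumps 1 rose, Abcc3, a pump of glucuronides and glutathione conjugates (3.67 ± 0.21), and 1 was called lower, Abcc5 (-0.44 ± 0.12). The Abcc5 call was lost under quantile normalization and in the fit of all rows. It was also lost without GFP-high replicate 1 or 3 or GFP-negative replicate 2 or 3. Abcc1 (0.27 ± 0.11) and Abcc4 (-0.27 ± 0.20) did not pass. The markers of club cells (list median 4.20), type 2 cells (3.06) and type 1 cells (1.57) of the alveoli rose in the arrays in which these genes rose, and their part in these list results was not tested.

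**Figure D4:**
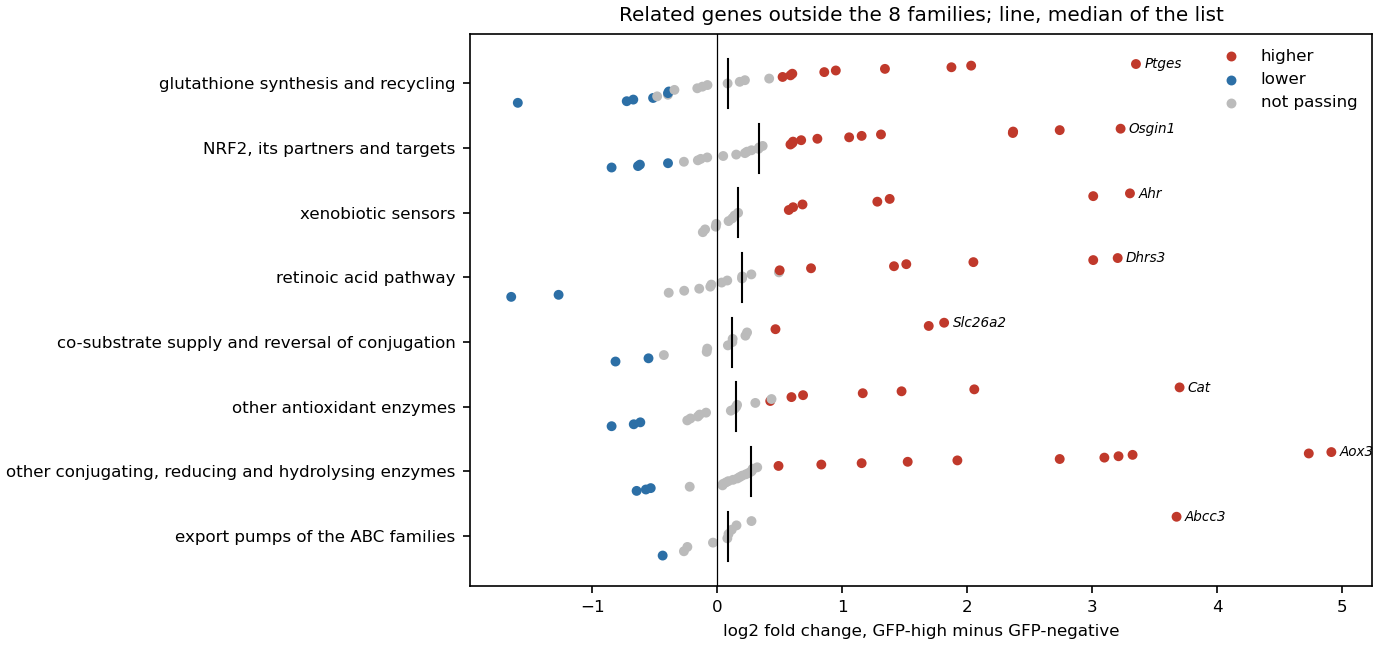
Log2 fold change (GFP-high minus GFP-negative, limma, n = 3 arrays per group) of each measured gene of 8 related lists outside the families, coloured by call, with the list median as a line and the gene of largest absolute change named. List medians lie between 0.08 and 0.33, while single genes such as Aox3 reach 4.91.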

How the data were processed

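RNA of 3 GFP-high and 3 GFP-negative sorted samples had been hybridised to Affymetrix Mouse Gene 2.0 ST arrays. The authors deposited log2 expression values per probe set, made by RMA per the submitters' processing notes. The deposited table has 41344 rows, of which 23520 name 1 gene in the platform annotation, 1814 several and 16010 none, and 23327 of the single names matched RefSeq. Array medians lay between 5.30 and 5.43. The highest-mean row stood for each of 22179 genes. The values were not normalised again.

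GFP-high was compared with GFP-negative in limma 3.58.1 (R 4.3.3) with lmFit and eBayes, without a replicate block, and p-values were adjusted by Benjamini-Hochberg over all 22179 genes. The number of arrays limits the precision, and an exact permutation of 3 against 3 arrays cannot go below p = 0.1. The fit was tested on simulated data. The labels do not state whether same-numbered arrays came from the same tumours, so replicate numbers were not used to pair arrays. Over all genes, the deviations of same-numbered arrays from their group means correlated at 0.114, -0.0256 and -0.00159. With 3 arrays a group these values cannot decide whether the arrays are pairs, and sets of genes may still share a deviation. A replicate block was therefore fitted as an alternative.

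Members were chosen by symbol, and the related gene lists and 13 cell type marker lists by known function. Members and lists were chosen with earlier results of these data known. Array values were given for members changed by a log2 fold change of 1 or more, and for genes of related lists the called genes of largest change, up to 4 a list. Genes named otherwise were chosen after their values were seen. Alternatives were another scaling, filter, row rule, moderation or weighting, a replicate block, and leaving out each array. Rows naming several genes were kept apart, and 14 member symbols occur only there. Promoter windows are from RefSeq, build GRCm38.p6.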

Additional observations from a re-analysis of the deposited data

Results flagged for a closer look

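Rows that name several genes were not used for the comparison of the families, and 3 of them that hold conjugation enzymes were higher in GFP-high cells (limma, adjusted over all 41344 rows). A row for the Ugt1a genes Ugt1a10, Ugt1a1, Ugt1a7c, Ugt1a9, Ugt1a5, Ugt1a2, Ugt1a6a and Ugt1a6b, which share their last exons, read 5.23, 5.50 and 5.29 in GFP-high and 4.11, 4.16 and 4.35 in GFP-negative arrays. Its log2 fold change was 1.13 ± 0.13 SE (adjusted p = 0.00118 by limma). A second row, for Ugt1a1, Ugt1a6a, Ugt1a7c, Ugt1a6b and Ugt1a5, read 6.02, 5.96 and 5.99 in GFP-high and 5.15, 5.12 and 5.25 in GFP-negative arrays, a difference of 0.82 ± 0.11 (adjusted p = 0.00205 by limma). Both rows had separate groups, but neither says which Ugt1a gene was measured. A row for Gstz1, the zeta class transferase of tyrosine breakdown, and Pomt2 gave 0.55 ± 0.15 (adjusted p = 0.044 by limma). It read 8.67, 8.55 and 8.40 in GFP-high and 8.09, 8.14 and 7.74 in GFP-negative arrays.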

How the results depend on the processing

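Of the 41 called members 26 kept their call under all 15 alternatives to the test, and 32 under all but the test without moderation. Among the 26 changed by a log2 fold change of 1 or more, 22 kept it under all 15, and the 4 lost without moderation were Aldh1a2, Aldh1l2, Gstt2 and Sult4a1. Members called lower numbered 10, and 3 without moderation or 5 with a minimum log2 fold change of 1. Members called higher numbered 31, and 26 and 21 under the same settings. Leaving out single arrays gave 27 to 30 members higher and 7 to 12 lower. With the replicate block 29 were higher and 10 lower, and the call was lost for Aldh9a1, Ces5a, Nqo2, Sult2a3 and Sult6b1 and gained for Gpx3, Ces1d and Aldh18a1. Without the lowest 30% of genes 54 members remained and their median log2 fold change moved to 0.38, against 0.17 in the main setting. Gstm4, which did not pass (-0.09), lay between -0.20 and 0.01 when single arrays were left out (0.0037 without GFP-high replicate 2 and 0.011 without GFP-negative replicate 2). Of 240 recomputed counts over the related lists, 22 moved by over 1.5 times, all of them counts of lower calls. The cause of these changes was not tested. With 3 arrays a group and no detection calls, small differences and low signals stay undetected.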

Other observations

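The remaining rows that name several genes with a member family among them gave values of their own (limma, adjusted over all rows). A row for Gstm5, a mu class transferase, and 4933431E20Rik was lower in GFP-high cells, with 7.62, 7.45 and 7.77 in GFP-high and 9.18, 9.36 and 8.83 in GFP-negative arrays (-1.51 ± 0.17, adjusted p = 0.000964). This is opposite to the 4 mu class genes that rose on rows of their own. A row shared by Gstp1 and Gstp2 was also lower (-0.49 ± 0.14, adjusted p = 0.0443), while neither gene passed on its own row. The 3 rows shared by Gsta1, Gsta2 and related sequences did not pass, with log2 fold changes of 0.35, 0.16 and -0.50, unlike the rows of Gsta3 and Gsta4. The row of Ugt2a1 and Ugt2a2 did not pass either (0.03).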
